A study of Mus musculus with 6 samples.

Results

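The genes described here encode the proteins that mark, license and fire origins of DNA replication and that copy DNA at the fork. They were chosen by name, with earlier results of these data known, as 49 genes in 11 groups by role. Each was read through the probe sets of the array that are annotated to that gene alone. All 49 had such a probe set, of 18193 genes in all that did. C2C12 is a mouse muscle precursor line that divides in rich serum and fuses into myotubes when shifted to low serum. Differentiated cultures were harvested on day 6 in 2% horse serum, and proliferating cultures were kept in 20% fetal calf serum. The groups thus differ in the kind of serum as well as its amount. The labels name no genetic change in either group. Transcript levels were measured on 6 Affymetrix mouse arrays, 3 for differentiated and 3 for proliferating cells. Each RNA sample had been pooled from 3 plates and combined from 3 such pools, so that p-values measure the spread between pools of cultures. Multinucleated myotubes and mononucleated cells were harvested together. A lower signal from such a mixture cannot tell fewer cycling cells from less transcript per cell.

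In each cell cycle, the origin recognition complex (ORC) binds DNA at the sites where replication may start. With Cdc6 and Cdt1 it loads the ring of Mcm2 to Mcm7, the core of the replicative helicase, and geminin (Gmnn) later blocks Cdt1 so that no origin is licensed again. The kinase Cdc7 with its activator Dbf4, together with Cdc45 and the GINS complex, turns the loaded ring into a moving helicase. Polymerase alpha with primase then lays down primers, polymerases epsilon and delta extend them, and the sliding clamp PCNA, placed by replication factor C (RFC), holds the polymerases on DNA. Many of these genes are known targets of E2F transcription factors, which the retinoblastoma proteins hold in check once myoblasts leave the cell cycle.

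Most transcripts of replication proteins were lower in differentiated cells, with at least 1 called member in each of the 11 role groups. At the brightest probe set of each gene, 41 of the 49 members were lower at a Benjamini-Hochberg adjusted p under 0.05 from limma, where 9.05% of the 18193 genes tested were called lower. None was called higher, where 8.67% of all genes were; the count of higher members was also 0 at an unadjusted p under 0.05 and 0 by the regularized test that the methods name. The change was at least 1.5-fold in 40 of the called members (6.42% of all genes). The fitted log2 fold change was -1 or under in 34 (3.07% of all genes) and -2 or under in 19 (0.978% of all genes). Both counts include Cdc6, Gins1, Gins2 and Pole, which were at background in differentiated cells and have only lower bounds on their folds. The median log2 fold change was -1.60 over the members and 0.06 over all genes. In 45 members every differentiated array lay below every proliferating array, which held for 15.5% of all genes.

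The 8 members not called lower were Orc1, Orc3, Orc4, Gins3, Pold3, Pole3, Pole4 and Mcm8. They were spread over 5 of the role groups. All members of the other 6 groups were called lower.

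**Figure D1:**
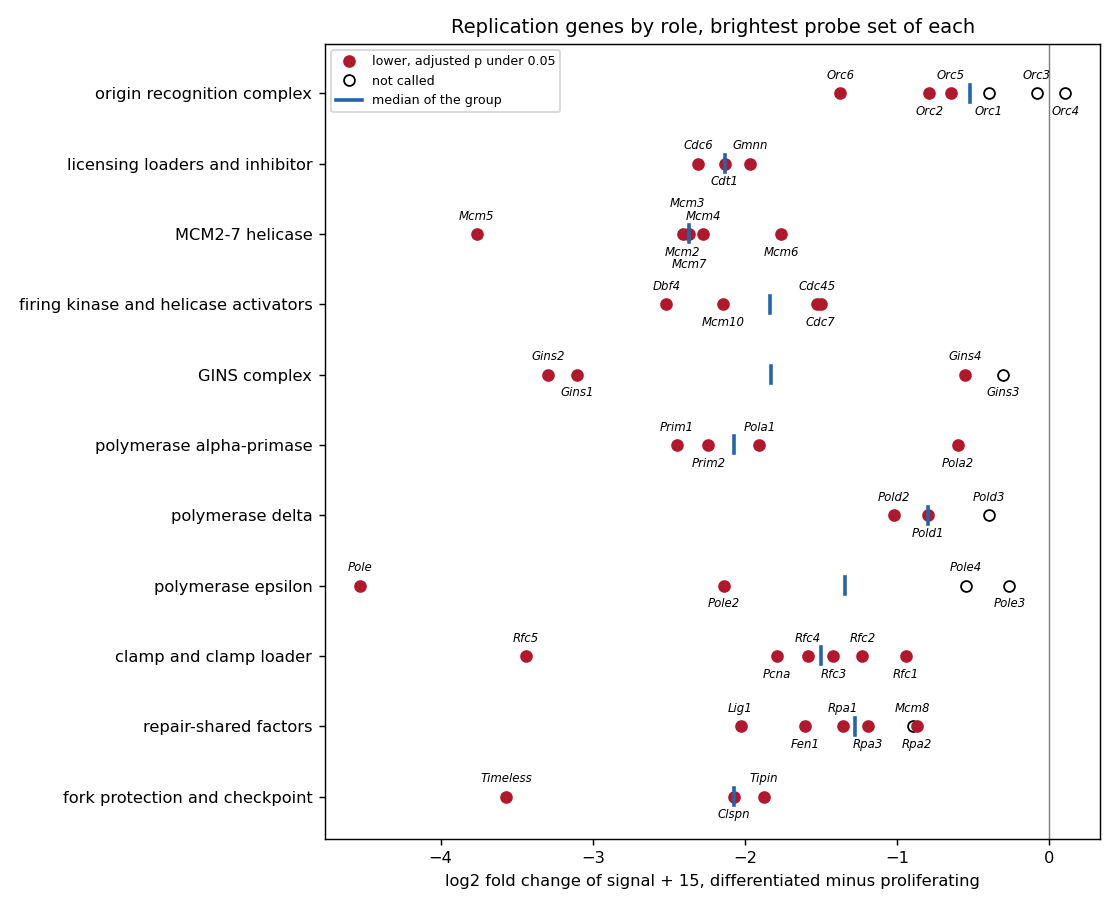
Log2 fold change (differentiated minus proliferating on the horizontal axis, signal plus 15, 3 arrays per group) of the brightest probe set of each of 49 genes, listed by role down the vertical axis. Filled symbols mark an adjusted p under 0.05 from limma, open circles a higher one, and blue bars are group medians, which run from -0.52 for the origin recognition complex to -2.37 for Mcm2 to Mcm7.

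**Figure D2:**
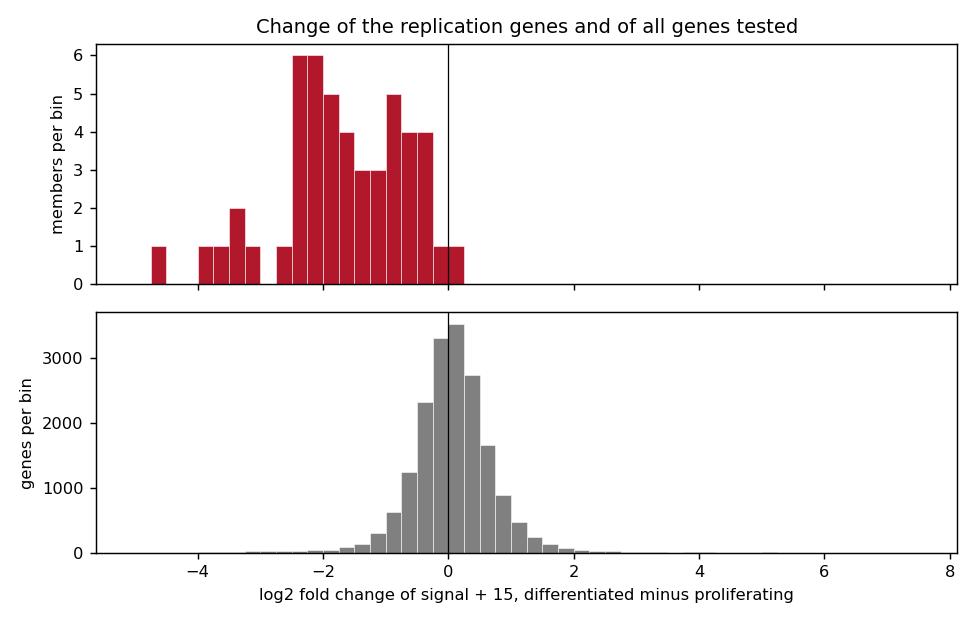
Number of members (upper panel) and of all genes tested (lower panel) per bin of log2 fold change, in steps of 0.25, with differentiated minus proliferating on the horizontal axis. The fitted values of the 49 members lie between -4.53, for a gene at background in differentiated cells, and 0.11, with a median of -1.60, against a median of 0.06 for 18193 genes.

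The signal is the linear MAS 5.0 value, scaled on each array to a trimmed mean of 250, and the fold change was fitted on log2 of the signal plus 15. It therefore understates the change of dim genes. The brightest of the 27 probe sets for Bacillus subtilis transcripts lay between 51.9 and 71.3 on the differentiated arrays and between 55.7 and 87.0 on the proliferating arrays, and a signal at or under it was read as background. By this limit 41 members were above background on all 3 differentiated arrays and 48 on all 3 proliferating arrays. A gene at background on every differentiated array has only a lower bound on its fold, which holds for Cdc6, Gins1, Gins2 and Pole. Mean log2 signals of the 49 members ran from 7.73 to 7.86 on the differentiated arrays and from 9.45 to 9.54 on the proliferating arrays, so that no array stood apart from its group.

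All 9 muscle markers examined, among them Myog, Acta1 and Myh3, were above background on the 3 differentiated arrays, and their summed signal was 61510 to 64310, against 6708 to 7669 in proliferating cells, with Acta1 alone averaging 26460 in differentiated and 266 in proliferating cells. The myoblast factors Myod1 (0.28, adjusted p = 0.11 from limma) and Myf5 (-0.10, adjusted p = 0.684) were not called, and the other 7 were called higher. Mki67, Top2a, Cdk1 and Aurka, which mark cycling cells, summed to 1014 to 1061 in differentiated and 10450 to 10670 in proliferating cells. Of 2 adipocyte markers with a probe set of their own, Lep was at background on all 6 arrays and Adipoq was above it on 1 differentiated array, with sums of 26.1 to 68.5 in differentiated and 8.5 to 55.5 in proliferating cells. Of the osteoblast markers, Sp7 was above background on all 6 arrays and Ibsp on 2 differentiated arrays and 1 proliferating array, with sums of 168 to 326 in differentiated and 139 to 226 in proliferating cells. The 4 macrophage markers summed to 583 to 603 in differentiated and 444 to 475 in proliferating cells. Among them the common leukocyte antigen Ptprc was above background on 0 differentiated arrays and 1 proliferating array, while Adgre1 was called higher (adjusted p = 0.0494 from limma). Adgre1, Cd68 and Csf1r were above background on all 6 arrays. Cd68 at 0.10 (adjusted p = 0.896) and Csf1r at 0.39 (adjusted p = 0.333) were not called. As signs of RNA quality, the ratio of the 3′ to the 5′ control probe set was 0.789 to 0.833 in differentiated and 0.822 to 0.855 in proliferating cells for Gapdh. For beta-actin it was 1.07 to 1.11 in differentiated and 1.23 to 1.31 in proliferating cells. The part of these differences in the changes of the members was not tested.

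Promoter sequence was examined because so many members moved together and E2F factors are known to bind near their start sites. RefSeq windows of mouse build GRCm38.p6, from 250 bases before to 50 bases after a start site, were found for 40 of the 49 members. A match to TTTCGCGC, TTTGGCGC, TTTCCCGC or TTTGCCGC, the spellings of the E2F consensus, on either strand was present in 18 of these 40 genes (45.0%). The same search found one in 3.81% of the 14452 genes of the array with a window, in 8.03% of the 1307 genes that were called lower and are not members, and in 2.26% of all 32851 windows. Of the 32 called members with a window 12 held a match, and of the 8 members that were not called 6 did. These calls are those of the brightest probe set. Among those 6, Orc1 and Pold3 each had a dimmer probe set that was called lower, and Mcm8 was near background. Matches at 2 or more places, overlapping ones counted separately, were found in Mcm3, Mcm5, Mcm6, Mcm7 and Rfc3, 12.5% of the members with a window. The share was 0.166% of the genes of the array with a window and 0.536% of the other genes called lower. All 5 were called lower, as were 32 of the 40 members with a window. The CCAAT box (CCAAT) was present in 23 of 40 members, against 42.0% of the genes of the array, and the CHR spelling TTTGAA in 7 of 40, against 15.7%.

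Stretches of 8 windows are printed to set called members beside members that were not called, each in lower case with the E2F matches in capitals, on the strand of the gene and numbered from the start site. The first 5 belong to called members. Calls are again those of the brightest probe set, and the dimmer probe set of Orc1 was called lower. In Mcm6 (chr1:128359736-128359825, minus strand, -120 to -31) the first capital run holds a pair of matches on opposite strands that overlap, and in Mcm5 (chr8:75109309-75109398, plus strand, -200 to -111) the only capital run does. Cdc6 (chr11:98907971-98908060, plus strand) and Pola1 (chrX:93632246-93632335, minus strand), both from -180 to -91, hold 1 match each, and Rfc3 (chr5:151651201-151651290, minus strand, -82 to 8) holds 2 that do not overlap. Orc1 (chr4:108579364-108579453, plus strand), Orc3 (chr4:34614943-34615032, minus strand) and Gins3 (chr8:95633469-95633558, plus strand), all from -90 to -1, were not called lower and hold 1 match each.
Mcm6: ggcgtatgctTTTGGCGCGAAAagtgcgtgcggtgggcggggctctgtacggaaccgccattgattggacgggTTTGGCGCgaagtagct
Mcm5: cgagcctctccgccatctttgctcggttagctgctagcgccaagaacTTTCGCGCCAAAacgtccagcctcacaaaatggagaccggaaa
Cdc6: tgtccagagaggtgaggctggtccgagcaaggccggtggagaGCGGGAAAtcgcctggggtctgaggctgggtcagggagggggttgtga
Pola1: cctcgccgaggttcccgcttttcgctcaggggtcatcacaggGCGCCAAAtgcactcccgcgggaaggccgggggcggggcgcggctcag
Rfc3: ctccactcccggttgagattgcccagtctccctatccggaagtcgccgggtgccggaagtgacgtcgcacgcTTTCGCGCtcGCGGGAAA
Orc1: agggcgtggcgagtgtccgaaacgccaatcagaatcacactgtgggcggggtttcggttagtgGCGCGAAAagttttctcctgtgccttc
Orc3: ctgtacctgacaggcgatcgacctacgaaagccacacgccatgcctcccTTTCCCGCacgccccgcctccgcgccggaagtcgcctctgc
Gins3: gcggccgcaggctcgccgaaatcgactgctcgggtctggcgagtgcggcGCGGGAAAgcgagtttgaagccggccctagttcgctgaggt
A match is a string of letters and not a measured binding site.

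**Figure D3:**
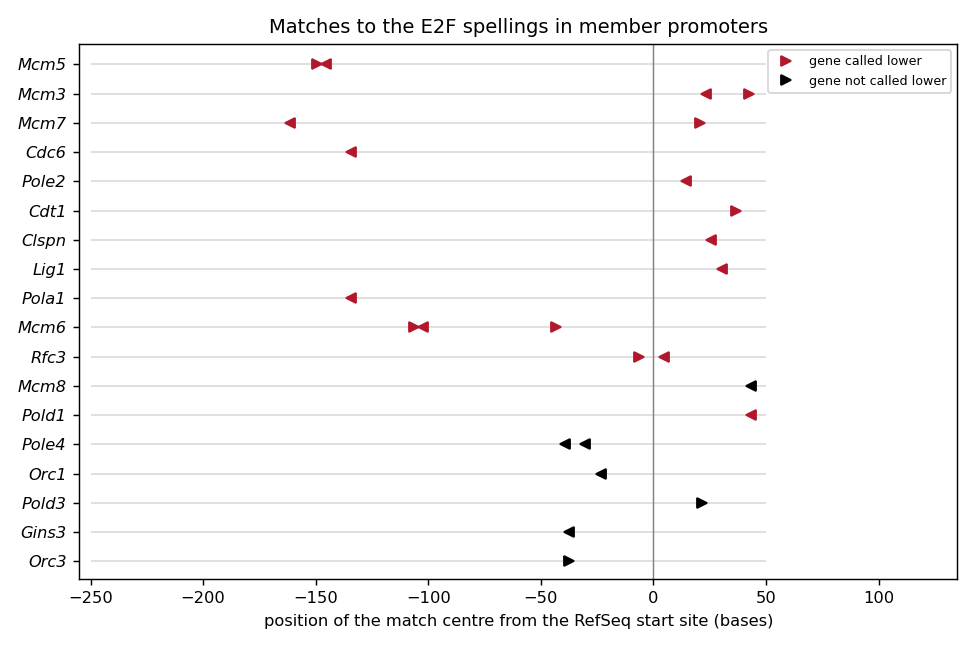
Position of each match to the E2F spellings (horizontal axis, bases from the RefSeq start site) in the 18 members that hold one, ordered by fitted change from the lowest value at the top. Triangles point right for matches on the strand of the gene and left for the opposite strand. They are red for genes called lower at their brightest probe set and black for the 6 that were not. Pole4 has 2 overlapping windows, so that its single match is drawn at 2 positions.

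Within ORC the subunits moved apart. Orc6, the smallest subunit, had signals of 256, 256 and 351 in differentiated cells, against 837, 758 and 694 in proliferating cells. By the brightest probe set of each gene it had the largest fall of the complex (log2 fold change -1.37, standard error 0.15, adjusted p = 3.82e-05 from limma). The groups do not overlap. Orc2 was at 324, 308 and 345 in differentiated and 526, 589 and 605 in proliferating cells (-0.79, standard error 0.13, adjusted p = 0.00103) at its brightest probe set, and these groups do not overlap. The other 2 probe sets of Orc2 did not follow it. The first had signals of 302, 335 and 317 in differentiated and 222, 229 and 230.4 in proliferating cells, every differentiated array being the higher (0.46, adjusted p = 0.0802), and the second changed by -0.41 (adjusted p = 0.49). Averaged over its probe sets, Orc2 was not called (-0.25, adjusted p = 0.314). Orc5, an ATP-binding subunit, had 171, 250.4 and 232 in differentiated and 367, 302 and 371 in proliferating cells (-0.65, standard error 0.18, adjusted p = 0.0367). Its call ended without differentiated replicate 1 (adjusted p = 0.14 from limma) or 3 (0.0575), without proliferating replicate 1 or 3 (0.126 each), and by the regularized test (0.0667).

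Orc3 and Orc4, core subunits of ORC, were not called in either direction at any probe set. Orc3 had signals of 349, 365 and 316 in differentiated and 360.4, 358 and 369 in proliferating cells, overlapping groups with a log2 fold change of -0.08 and a 95% interval, unadjusted for the number of genes, of -0.38 to 0.22. That interval does not reach a 1.5-fold fall, and the other 2 probe sets were at 0.04 and 0.05. Orc4 had 603, 563 and 638 in differentiated and 644, 525 and 509.6 in proliferating cells, at 0.11 (interval -0.17 to 0.38), the only positive value among the 49 genes. Its 2 other probe sets above background were at 0.01 and -0.36.

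Orc1, the largest subunit, whose protein is known to rise and fall over the cell cycle in mammals, gave different answers at its 2 probe sets. At the brighter the signals were 75.7, 187 and 112 in differentiated and 127, 238 and 133 in proliferating cells, which overlap, and the change was not called by limma (-0.40, standard error 0.34, adjusted p = 0.58). At the other they were 12.7, 55.3 and 37.9 in differentiated and 145, 158 and 169 in proliferating cells. The differentiated arrays there were all at background, so that this probe set was at least 2.65-fold lower (adjusted p = 0.0107). With both averaged Orc1 was called lower, at -1.14 (adjusted p = 0.0476).

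Both loaders and their inhibitor fell together. Cdc6, the ATPase that joins ORC to load the helicase, was at background on the differentiated arrays, at 41.4, 42.1 and 16.2, against 246, 169 and 239 in proliferating cells, at least 3.63-fold lower (adjusted p = 0.00104 from limma). Cdt1, which brings the Mcm ring to the origin, had signals of 439, 458 and 509 in differentiated and 2097, 2162 and 2052 in proliferating cells (-2.13, standard error 0.10, adjusted p = 2.07e-08). Its arrays were tight within both groups. A second probe set of Cdt1 fell by a like amount, at -2.32, and another was at background on all 6 arrays. Gmnn, which binds and blocks Cdt1, had 163, 277 and 219 in differentiated and 825, 1044 and 797 in proliferating cells (-1.97, standard error 0.18, adjusted p = 9.40e-06).

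All 6 genes of the helicase ring were lower, with log2 fold changes between -3.76 and -1.76 and adjusted p-values of 2.03e-07 or less from limma. Mcm5 fell most, with signals of 131, 188 and 97.4 in differentiated and 2142, 1939.5 and 1967 in proliferating cells (standard error 0.18, adjusted p = 2.62e-08), all of them above background. A second Mcm5 probe set was at -3.85 and another, the dimmest in proliferating cells, was not called, at -0.56 (adjusted p = 0.322). Mcm6 had the smallest change of the ring, 662, 668 and 809 in differentiated and 2491, 2546 and 2302 in proliferating cells (standard error 0.11, adjusted p = 2.03e-07). Of its other probe sets 1 fell by a like amount, -1.68, and 1 was above background on a single array. Mcm7 had the smallest adjusted p of the 49 genes, with 1029, 1104 and 1001 in differentiated and 4989, 5776 and 5582 in proliferating cells (-2.36, standard error 0.09, adjusted p = 4.97e-09). All 4 of its probe sets were called, between -2.99 and -1.65.

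At their brightest probe sets Mcm2, Mcm3 and Mcm4 were at -2.41, -2.38 and -2.27. Mcm3 had signals of 237, 304 and 268 in differentiated and 1447, 1555 and 1373 in proliferating cells, and 4 of its 5 probe sets were called. The others of these were at -2.54 and -3.10 and, at background on the differentiated arrays, at least 10.4-fold lower. The one not called was at -1.22 (adjusted p = 0.0606). With probe sets that can bind several transcripts left out, the brightest of Mcm3 is the one with the bound, and Mcm7 is at -2.99. Both probe sets of Mcm2 fell, at -2.41 and -1.21, and both of Mcm4, at -2.27 and -1.91. Fitted levels in differentiated cells were 7.36% of the proliferating level for Mcm5 and 18.8% to 29.5% for the other 5 genes.

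The kinase subunits that fire origins were both called, Dbf4 with the larger change. Dbf4 had 176, 195 and 217 in differentiated and 1195, 1184 and 1187 in proliferating cells (-2.52, standard error 0.12, adjusted p = 3.39e-08 from limma). Cdc7, the catalytic subunit, had 96.0, 72.0 and 63.5 in differentiated and 272, 238 and 222 in proliferating cells (-1.50, standard error 0.26, adjusted p = 0.00142). The second probe set of each was not called, at 0.67 for Dbf4, where 1 of 6 arrays was above background, and -0.17 for Cdc7, where all were. Cdc45, which joins the ring in the active helicase, was at 172, 128 and 189.5 in differentiated and 471, 479.5 and 527 in proliferating cells (-1.52, adjusted p = 6.01e-05). Mcm10, needed to activate the helicase, had 85.3, 57.2 and 103 in differentiated and 429.7, 405 and 381 in proliferating cells (-2.15, adjusted p = 3.12e-05), 2 of the 3 differentiated arrays being above background. Both also have dimmer probe sets that were not called, at 0.29 for Cdc45 and at -0.48 and 0.52 for Mcm10. That of Cdc45 was above background on 3 differentiated and 2 proliferating arrays. Of those of Mcm10, the first was above background on 1 proliferating array alone, and the second was at background on all 6 arrays. With all probe sets averaged neither gene was called, Cdc45 at -0.62 (adjusted p = 0.0729) and Mcm10 at -0.70 (0.204).

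Of the 4 subunits of GINS, which act as one complex in the helicase, Gins1, Gins2 and Gins4 were called lower and Gins3 was not. Gins1 and Gins2 were at background on every differentiated array, Gins1 at 46.6, 32.9 and 18.7, against 327, 495 and 346 in proliferating cells, and Gins2 at 34.0, 37.4 and 41.7, against 527, 391 and 606 in proliferating cells. They were at least 6.48-fold and 8.46-fold lower (adjusted p = 2.18e-05 and 1.60e-06 from limma), and the second probe set of Gins2 was called as well. Gins4 stayed well above background, with 407, 505 and 448 in differentiated and 704, 666 and 641 in proliferating cells, and its change of -0.55 (standard error 0.12, adjusted p = 0.00872) was the only called one under 1.5-fold. The call of Gins4 ended where the variance was fitted with no trend in signal (adjusted p = 0.126). Gins3 had 154, 179 and 178 in differentiated and 192, 220.1 and 228 in proliferating cells. Its groups do not overlap, yet the change of -0.30 was not called (interval -0.73 to 0.13, adjusted p = 0.432), nor was that of its second probe set, -0.34.

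Of the polymerase alpha-primase complex, 3 of 4 subunits had changes between -2.45 and -1.90 and the fourth fell by less. Prim1, the catalytic subunit of primase, was at 244, 221 and 205 in differentiated and 1307, 1363 and 1183 in proliferating cells (-2.45, standard error 0.12, adjusted p = 3.54e-08 from limma). Prim2, its regulatory partner, was at -2.24 (adjusted p = 9.16e-07), with signals of 141, 130.4 and 110.4 in differentiated and 691, 677 and 601 in proliferating cells. Both genes have a second probe set that was called, and Prim2 has another that was above background on 1 array. Pola1, the polymerase itself, was at 70.8, 78.5 and 90.1 in differentiated and at 327, 231 and 512 in proliferating cells (-1.90, standard error 0.28, adjusted p = 0.000443), the proliferating arrays being widely spread. Pola2, the accessory subunit, had 298, 276 and 301 in differentiated and 504, 428 and 418 in proliferating cells, a smaller change of -0.60 (standard error 0.14, adjusted p = 0.013). The call of Pola2 ended without proliferating replicate 1 (adjusted p = 0.0688) and where the variance was fitted with no trend (0.102). Its other probe sets had 1 array above background between them.

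Polymerase delta, which makes most of the lagging strand, had a median change of -0.80 over 3 members, against -2.07 for polymerase alpha-primase. Pold4, counted among the other genes of replication below, was called lower at -0.64 (adjusted p = 0.00186 from limma). Pold2 had 390.3, 405 and 382 in differentiated and 758, 901 and 785 in proliferating cells (-1.02, standard error 0.12, adjusted p = 6.12e-05 from limma). The catalytic subunit Pold1 had 204, 228 and 215 in differentiated and 402, 339 and 420.2 in proliferating cells (-0.80, adjusted p = 0.00417), and its second probe set was at -1.31 (adjusted p = 0.000142). The first of these is of the kind that can bind several transcripts, and its value is the median of the group. For Pold3 the signals were 247, 368 and 268 in differentiated and 336, 448 and 381 in proliferating cells, which overlap. Its change of -0.39 was not called (interval -0.78 to -0.0021, adjusted p = 0.216). Of its 2 dimmer probe sets 1 was called, at -2.10, with 1 differentiated array above background, and the mean of all 3 was called too (-0.91, adjusted p = 0.0124).

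Polymerase epsilon, which copies the leading strand, had called falls in its larger subunits, Pole and Pole2, and none in the small ones at their brightest probe sets. Pole, the catalytic subunit, had 13.6, 8.10 and 8.90 in differentiated and 632, 488 and 583 in proliferating cells. It was at background in differentiated cells and at least 9.55-fold lower (adjusted p = 4.83e-07 from limma). Pole2 had 96.0, 81.1 and 126 in differentiated and 374, 682 and 456 in proliferating cells (-2.14, standard error 0.24, adjusted p = 4.78e-05), and its other probe set was at background throughout.

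The small histone-fold subunits Pole3 and Pole4 were not called. Pole3 is also known as part of a chromatin remodelling complex. It had signals of 566, 511 and 587 in differentiated and 619.5, 721 and 663 in proliferating cells, groups that do not overlap, with a change of -0.26 (interval -0.51 to -0.01, adjusted p = 0.206 from limma). That interval does not reach a 1.5-fold fall, while a dimmer probe set of Pole3 was called at -0.85 (adjusted p = 0.0204). The brightest probe set of Pole4 had 289.9, 347 and 433 in differentiated and 441, 635 and 501 in proliferating cells (-0.54, interval -0.92 to -0.16, adjusted p = 0.0638). A second, nearly as bright, lay the other way. There every differentiated array was above every proliferating array, with 485, 502 and 453 in differentiated and 370.4, 329 and 374 in proliferating cells (0.41, adjusted p = 0.0606). The brightest probe set of Pole4 was called with dim probe sets left out (0.0353), with every array set to a common 75th percentile (adjusted p = 0.0496 from limma) and without differentiated replicate 3 (0.0302).

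**Figure D4:**
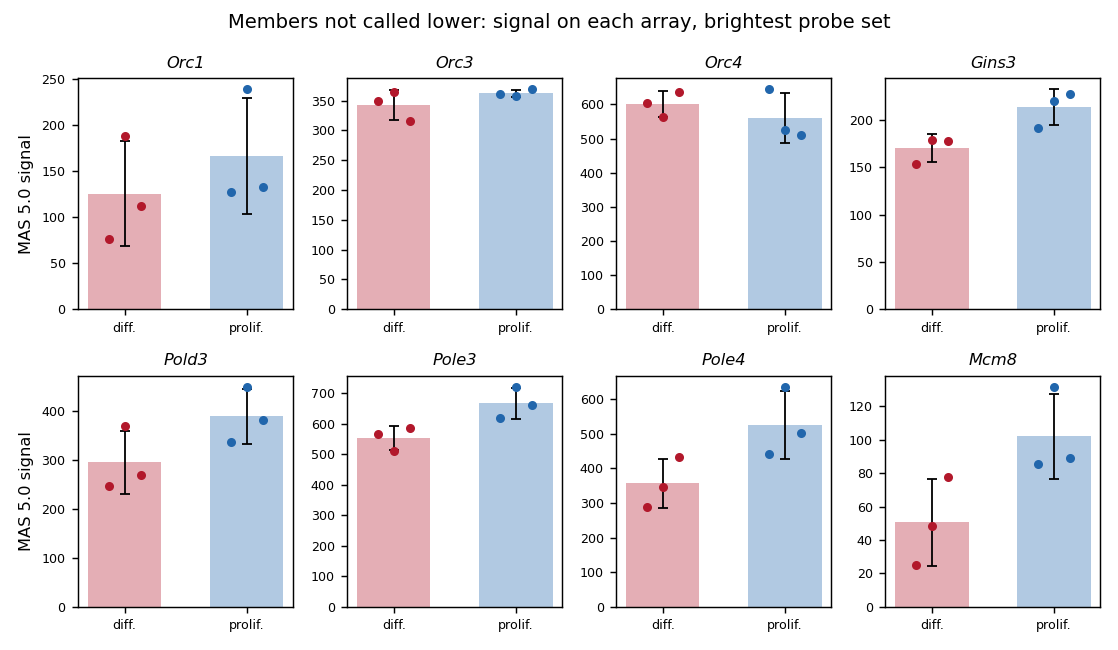
MAS 5.0 signal (vertical axis, linear scale from 0) of the brightest probe set of the 8 members that were not called lower, in differentiated (red) and proliferating (blue) cells. Each bar gives the mean with its SD, and the 3 arrays are drawn as circles; the groups overlap for Orc1, Orc3, Orc4 and Pold3.

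PCNA and all 5 subunits of the loader that places it on DNA were lower. Pcna was the brightest of the 49 genes and had 2926, 2968 and 2985 in differentiated and 10239.6, 10640.3 and 9965 in proliferating cells (-1.79, standard error 0.09, adjusted p = 3.43e-08 from limma). Of its proliferating level 28.9% remained. Rfc5 had the largest change of the loader, with 40.1, 69.1 and 59.3 in differentiated and 693, 795 and 752 in proliferating cells (-3.44, standard error 0.21, adjusted p = 1.94e-07). Of the differentiated arrays 1 was above background. Rfc1, the large subunit particular to the replicative loader, had the smallest, 277, 376 and 319 in differentiated and 675, 653 and 570.4 in proliferating cells (-0.94, standard error 0.14, adjusted p = 0.000612). Rfc2, Rfc3 and Rfc4, which like Rfc5 also serve in other clamp loaders, lay between them at -1.23, -1.42 and -1.58. Rfc2 had signals of 282, 327 and 295 in differentiated and 768, 743 and 666 in proliferating cells, and 2 dimmer probe sets of it were not called, at 0.03 (adjusted p = 0.972) and -1.36 (adjusted p = 0.0676).

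The 6 members grouped here as shared with DNA repair had a median change of -1.27. Group medians ran from -0.52 for ORC to -2.37 for the helicase ring, with polymerase delta at -0.80 and polymerase epsilon at -1.34. Lig1, which seals nicks between Okazaki fragments, had 219.7, 182 and 246 in differentiated and 935, 969.9 and 862 in proliferating cells (-2.03, standard error 0.14, adjusted p = 6.85e-07 from limma). Fen1, which trims the flaps before ligation, was called at both probe sets, at -1.60 and -2.55, the second being the one left where probe sets that can bind several transcripts are set aside. RPA, which coats single-stranded DNA in replication and repair alike, fell in all 3 subunits, with Rpa1 at -1.36, Rpa3 at -1.19 and Rpa2 at -0.87. Rpa1 stayed bright, at 2305, 2441 and 2236 in differentiated and 5833, 5906 and 6193 in proliferating cells. Rpa2 had 118, 212 and 183 in differentiated and 230.2, 408 and 336 in proliferating cells (standard error 0.25, adjusted p = 0.0391). Its adjusted p was the highest of the 41. The call of Rpa2 ended without differentiated replicate 1 (adjusted p = 0.154 from limma) or 3 (0.0674) and without proliferating replicate 2 (0.165) or 3 (0.129), although a second probe set was called as well (-0.86, adjusted p = 0.0105). Mcm8, a relative of the ring that acts with Mcm9 in homologous recombination, was dim, at 25.3, 48.6 and 77.7 in differentiated and 85.7, 132 and 88.8 in proliferating cells. With 1 differentiated and 2 proliferating arrays above background, its change of -0.90 was not called (interval -1.85 to 0.05, adjusted p = 0.254).

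All 3 genes of proteins that steady the fork and relay the replication checkpoint fell. Timeless, the partner of Tipin, had 17.5, 19.5 and 85.9 in differentiated and 572, 755 and 402 in proliferating cells (-3.57, standard error 0.40, adjusted p = 5.16e-05 from limma). Only differentiated replicate 3 was above background there, and a dimmer probe set of Timeless was called too. Tipin was at 247, 288 and 266 in differentiated and 944, 1013 and 1102 in proliferating cells (-1.87, standard error 0.12, adjusted p = 4.44e-07). Clspn, the adaptor through which the checkpoint kinase Chk1 is activated, had 73.4, 75.6 and 105 in differentiated and 373, 377 and 458 in proliferating cells (-2.07, adjusted p = 2.46e-05), while its dimmer probe set was not called (-0.85).

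Of the 49 genes, 13 had 1 probe set and 36 had 2 to 5. Over all 105 probe sets 66 were called lower and 0 higher by limma, where 6.43% of 45037 probe sets were called lower and 6.14% higher. At an unadjusted p under 0.05, 71 were lower (10.7% of all probe sets) and 2 higher (12.1%). The regularized test called 65 lower (5.96%) and 0 higher (5.57%). The pair that was higher belongs to Orc2 and Pole4, as described above. In 12 of the 36 genes all probe sets were called lower, in 20 some were and in 4 none was, namely Orc3, Orc4, Gins3 and Pole4. Counting any probe set, 44 of the 49 members had a called fall, as did 10.2% of all genes. The mean over all probe sets of a gene moved the fold of 14 members by over 1.5 times, of 13 toward 0 and of Orc1 away from it.

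**Figure D5:**
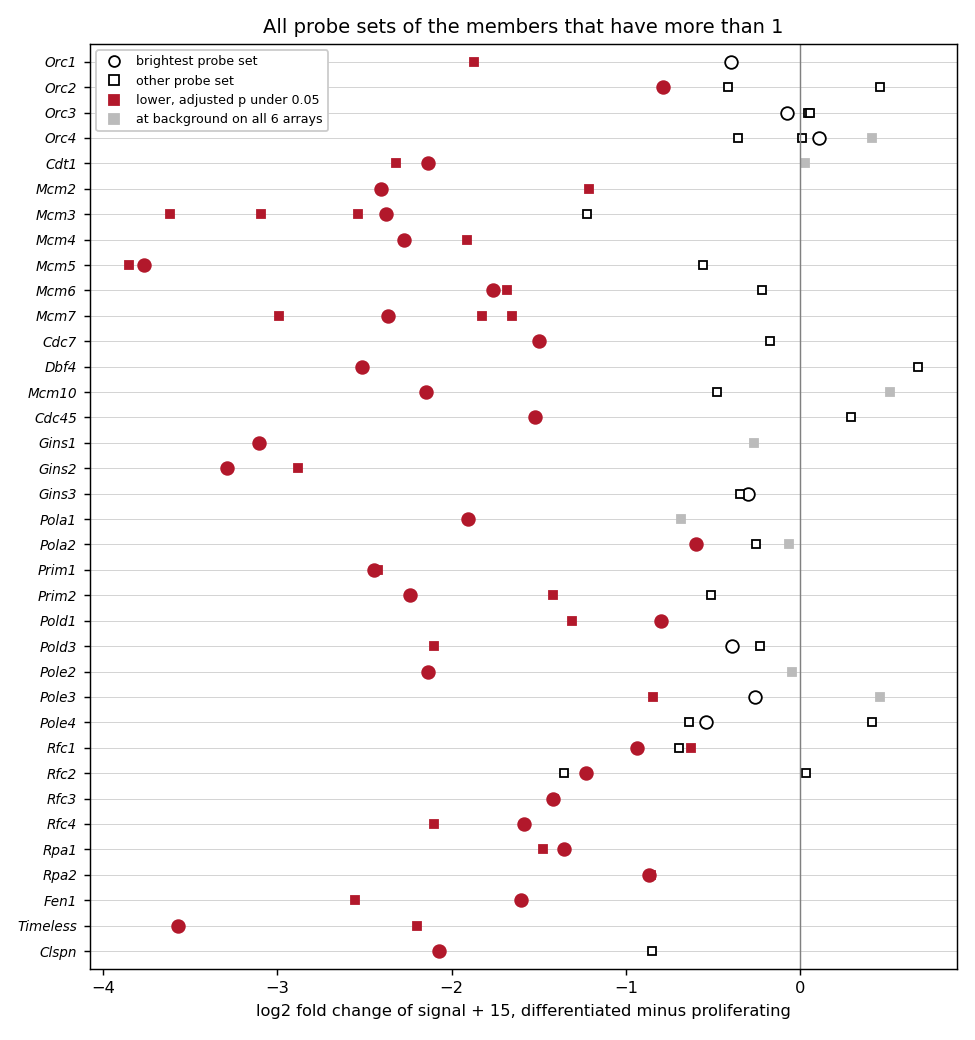
Change on the log2 scale (differentiated minus proliferating, horizontal axis) of every probe set of the 36 members with 2 to 5 probe sets (vertical axis). Circles are the brightest probe set of a gene and squares the others; filled red symbols were called lower, open symbols were not and grey ones were at background on all 6 arrays, as 8 of 105 were.

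A list of 29 other genes of replication, 27 of which had a probe set of their own, moved mostly the same way, with a smaller median. Of the 27, 22 were called lower (9.05% of all genes), 1 higher and 4 neither, with a median log2 fold change of -0.97. The count was 13 where the variance was fitted with no trend and 14 where the probe sets of a gene were averaged. The called genes include Asf1b (-3.16) and Chaf1b (-2.32), which deposit histones behind the fork, and Chtf18, part of an alternative clamp loader, at least 3.03-fold lower. Ticrr, Recql4 and Dscc1 were at background on the differentiated arrays as well and have only bounds, at least 2.5-fold, 2.91-fold and 2.88-fold lower. Cul4a, the scaffold of the ubiquitin ligase that removes Cdt1 during S phase, was the one called higher, with signals of 882, 802 and 723 in differentiated and 362, 478 and 541 in proliferating cells (0.80, standard error 0.15, adjusted p = 0.0029 from limma). Its groups do not overlap. Cul4b, the other Cul4 gene of the list, was called lower, at -0.39 (adjusted p = 0.0303 from limma), and its groups do not overlap either. Ddb1, the adaptor of the ligase, was at 0.14 (adjusted p = 0.419). Dtl, which recognizes Cdt1 for that ligase, was called lower at -1.71 (adjusted p = 4.09e-05). Topoisomerase I (Top1) at 0.17, Rnaseh2a at -0.40 and Mcm9 at -1.48 were not called either. The groups overlap for Top1 and do not for Rnaseh2a and Mcm9. Mcm9 had 1 differentiated array above background, and its change was imprecise (interval -2.54 to -0.42, adjusted p = 0.0712 from limma).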

How the data were processed

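RNA of differentiated and proliferating C2C12 cells had been hybridized to Affymetrix Mouse Genome 430 2.0 arrays. Images had been analysed with MAS 5.0, and the intensity values deposited by the authors are linear signals whose mean after trimming 2% at each end is 250 on every array. The GCRMA values of the methods were not used here.

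Of all probe sets, 64 controls were left out and 45037 tested. A pseudocount of 15 was added before taking log2, and the difference between the groups estimated in limma (version 3.58.1, R 4.3.3) by lmFit and by eBayes with a trend in signal; p-values are 2-sided and adjusted by Benjamini-Hochberg over all of them. The platform annotation gave 34945 probe sets 1 gene, 932 several and 9160 none. A gene was represented by its probe set with the highest mean signal. Bounds on a fold set the mean log2 signal of proliferating arrays against that of the background limits of differentiated arrays. Values by array are given for members that were not called, for the extremes of each role group and for members whose probe sets differed. The members and lists were chosen with earlier results of these data known. The number of arrays limits the precision; groups of 3 allow no exact permutation p under 0.1. Alternatives covered scaling, pseudocount, dim probe sets, variance model, the regularized test, pairing, each array, thresholds and probe set choice. Python 3.11.15 and pandas 2.3.3 served for the tables and for the promoter search. Only windows of 300 bases were searched, and a gene with several start sites counted once.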

Additional observations from a re-analysis of the deposited data

How the results depend on the processing

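Over 18 alternatives, the count of members called lower ran from 37 (eBayes without trend) to 44 (unadjusted p under 0.05), against 41 as reported, and from 39 to 41 with single arrays left out. The count of higher members was 0 in each. Of the 41 called members, 34 were called lower under all 18 and 7 lost the call under at least 1: Orc2, Orc5, Mcm10, Cdc45, Gins4, Pola2 and Rpa2. The median log2 fold change of the members was -1.73 to -1.59 with single arrays left out, and -1.29 with the probe sets of a gene averaged; that mean takes in probe sets at background. The averaged value of Orc3 was 0.0053, on the other side of 0 from the reported -0.08. The other replication genes called lower were 13 with eBayes without trend and 14 with averaged probe sets, against 22, and 19 to 21 with single arrays left out; the cause was not tested. The labels do not say whether replicate numbers pair the arrays. Over all probe sets tested, deviations from the group means correlated at 0.0125, 0.00066 and 0.0094 between arrays of the same number. Dim probe sets are included there, so that these values cannot decide on pairing for the members. With the replicate block 41 members and 21 of the other genes were called lower and 0 members higher, with a call lost for Orc5 and gained for Pole4. Signals near background limit the folds of Cdc6, Gins1, Gins2, Pole, Rfc5, Timeless and Mcm8. A pseudocount of 50 moved 5 members by over 1.5 times (Cdc6, Gins1, Gins2, Pole and Timeless) and one of 5 moved Pole.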
